A study of Mus musculus with 6 samples.

Results

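Bicarbonate and anion exchangers and carbonic anhydrases were followed in sorted kidney cells of mice with and without the floxed *Trf1* allele. The genes were taken by name, with earlier results of these data known, and all 9 have a row among the 12125 genes listed. There were 4 exchangers, *Slc4a1*, *Slc4a4*, *Slc4a9* and *Slc26a4*, and 5 carbonic anhydrases, *Car2*, *Car4*, *Car12*, *Car14* and *Car15*. None of the 9 genes passed the test between the genotypes after adjustment over all genes tested. *Slc26a4*, the apical anion exchanger pendrin, and *Slc4a4*, the basolateral sodium-bicarbonate cotransporter of the proximal tubule, had the smallest p values of the 9 before adjustment. The mean normalized count of *Slc26a4* was 18.7 times higher in Trf1+/+ than in Trf1flox/flox libraries, and that of *Slc4a4* was 2.62 times higher in Trf1flox/flox libraries. In both cases the 2 groups of libraries overlapped. *Car2*, the cytosolic carbonic anhydrase, was the highest of the 9 genes per kilobase in every library.

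The kidney keeps blood pH stable by reclaiming filtered bicarbonate in the proximal tubule and by secreting acid or base from the intercalated cells of the collecting system. Carbonic anhydrases interconvert carbon dioxide and bicarbonate, inside the cell or at its surface. Exchangers and cotransporters of the SLC4 and SLC26 families then carry bicarbonate across the membrane, while proton pumps and sodium-proton exchangers carry the acid. Acid-secreting (type A) intercalated cells have the anion exchanger encoded by *Slc4a1* on their basolateral side. Base-secreting (type B) cells have pendrin on the apical side and the transporter encoded by *Slc4a9* on the basolateral side.

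Male and female mice aged 6 to 8 weeks at the start received tamoxifen 3 times per week for 8 weeks. All of them carried the inducible Col1a2-CreERT2 recombinase, whose Cre is driven by the promoter of the collagen gene *Col1a2*, and a Katushka fluorescent reporter (KFP) that Cre switches on. The mice were either Trf1+/+ or homozygous for the floxed *Trf1* allele, called Trf1lox/lox in the design and Trf1flox/flox in the sample labels and here. Thus tamoxifen, Cre and reporter were common to both groups, and the sex of each mouse is not given in the sources used here. Kidney cells were sorted with antibodies to CD29 and to the reporter, and the sources used here do not state which gate was sequenced. RNA of 500 cells per mouse was made into 1 library, with 3 libraries per genotype. The replicate numbers follow the order of deposition and pair no mice.

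The values were normalized counts, which are reads divided by 1 size factor per library. The reads recovered from them numbered 10272323 to 12248797 in Trf1+/+ and 10263382 to 11285532 in Trf1flox/flox libraries. A single read was worth 0.689 to 1.09 normalized counts, and counts of 3 reads or fewer are called the floor here. The library labelled Trf1+/+ replicate 1 had a median normalized count of 13.4, and the other libraries had medians from 118 to 148. For *Terf1*, which encodes TRF1, the normalized counts of the Trf1+/+ group were 0.891, 253 and 235, and those of the Trf1flox/flox group were 110.0, 7.65 and 12.4. With 1 read, the library labelled Trf1+/+ replicate 1 is at odds with its label. That library also had the fewest genes above 0 (8967). Of genes with a mean of 100 or more in the other libraries, 12.9% were at 0 in it, beside 0.932% to 9.01% in the others by the same measure. Its *Terf1* count alone therefore does not settle its genotype. Trf1flox/flox replicate 1, at 110.0 for *Terf1*, lay between the other Trf1flox/flox libraries and Trf1+/+ replicates 2 and 3. The log2 fold changes of *Slc26a4*, *Slc4a1* and *Slc4a9* are also given without Trf1flox/flox replicate 1. The labelled cell type also went against those of its markers that had a row. Only 3 of 12 fibroblast markers had a row, and the level of the others is not known from these values. The listed markers summed to 1.66 to 105 normalized counts in the Trf1+/+ group and 15.5 to 102 in Trf1flox/flox libraries. *Col1a2*, listed beside *Dcn* and *Fn1*, never exceeded 1.78. The markers of the proximal tubule summed to between 15449 and 116745 normalized counts in a library and those of the loop of Henle and distal convoluted tubule to between 72736 and 170281. The latter were led by *Umod*, *Slc12a3* and *Egf*, and *Calb1* among them had an unadjusted p under 0.05 (log2 fold change -1.82, adjusted p = 0.970 from limma). The cells are therefore called sorted kidney cells here.

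The sequences before the transcription starts are shown for *Slc26a4*, *Slc4a4* and *Car14*, because *Slc4a4* and *Car14* had similar profiles over the libraries and *Slc26a4* had a different one. They are RefSeq promoters on build GRCm38.p6, 250 bases long and ending at the last base before the start, written 5′ to 3′ on the strand of the gene. Of the 9 genes, 6 had an entry. The window of *Slc26a4* is chr12:31559985-31560234 on the minus strand, that of *Car14* is chr3:95904686-95904935 on the minus strand, and that of *Slc4a4* is chr5:89027716-89027965 on the plus strand, before the second of its 2 listed starts, since the window before the first overlaps an annotated exon. Capitals mark matches to the motifs searched.
Slc26a4: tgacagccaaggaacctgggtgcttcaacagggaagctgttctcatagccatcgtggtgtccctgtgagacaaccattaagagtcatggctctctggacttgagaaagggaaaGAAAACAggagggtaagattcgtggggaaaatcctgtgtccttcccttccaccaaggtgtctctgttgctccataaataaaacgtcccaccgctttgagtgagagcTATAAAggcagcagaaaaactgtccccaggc
Slc4a4: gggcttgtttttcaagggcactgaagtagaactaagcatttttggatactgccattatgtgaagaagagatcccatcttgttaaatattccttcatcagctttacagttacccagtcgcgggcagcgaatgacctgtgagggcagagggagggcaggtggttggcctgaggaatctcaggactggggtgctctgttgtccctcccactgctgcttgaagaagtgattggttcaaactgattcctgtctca
Car14: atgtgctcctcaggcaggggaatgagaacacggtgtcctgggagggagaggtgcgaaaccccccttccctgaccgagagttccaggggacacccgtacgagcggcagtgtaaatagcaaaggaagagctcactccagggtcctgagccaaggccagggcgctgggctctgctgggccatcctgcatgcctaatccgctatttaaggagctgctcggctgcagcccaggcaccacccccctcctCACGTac
The motifs were a forkhead site (TGTTTNC), an HNF1 site (GTTAAT), an HNF4 site (CAAAGTCCA), the core of the hypoxia response element (ACGTG) and the TATA box (TATAAA), searched on both strands, and no match overlapped another. The *Slc26a4* window held a forkhead match on the minus strand that begins at position -137 and a TATA box that begins at position -31, counted from -1 at the last base before the start. The *Car14* window held 1 match, to the hypoxia core on the minus strand at position -7. Most of this match lies inside the gene as annotated in GENCODE vM21, which reaches 95904691, so this window also overlaps an annotated exon. No motif matched in the *Slc4a4* window. A forkhead match was present in 17.8% of all 32851 promoters of this length, a TATA box in 12.4%, the hypoxia core in 16.6%, the HNF1 site in 6.43% and the HNF4 site in 0.384%. GC content was 49.6% for *Slc26a4*, 48.8% for the window shown of *Slc4a4* (82% before its first start) and 62% for *Car14*, beside a median of 52.4% over all promoters.

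*Slc26a4* (ENSMUSG00000020651, chromosome 12, 31519827 to 31559969 on GRCm38) encodes pendrin, which exchanges chloride for bicarbonate at the apical membrane of type B intercalated cells. Its normalized counts were 1295, 3168 and 119 in Trf1+/+ replicates 1, 2 and 3. In Trf1flox/flox replicates 1, 2 and 3 they were 0, 191 and 53.7. Thus the Trf1+/+ replicates 1 and 2 stood above every other library, whereas Trf1+/+ replicate 3 lay between the Trf1flox/flox replicates 2 and 3. The mean was 1528 ± 1538 (SD, n = 3) in the Trf1+/+ libraries and 81.7 ± 98.6 (SD, n = 3) in Trf1flox/flox libraries. The log2 fold change on log2(normalized count + 1) was -5.17 (standard error 2.03, adjusted p = 0.970 from limma). By exact permutation of the 6 libraries the two-sided p was 0.2, where 3 libraries against 3 allow no p below 0.1. A negative log2 fold change here means a lower level in Trf1flox/flox libraries. On the recovered reads the log2 fold change was -4.30 with edgeR (adjusted p = 0.999) and -4.22 with DESeq2 (adjusted p = 0.210). The value of 0 in Trf1flox/flox replicate 1 allows up to 3 reads, or 2.58 normalized counts, as counting error alone. Without that library the log2 fold change of *Slc26a4* was -2.95.

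*Slc4a9* (ENSMUSG00000024485, chromosome 18, 36528147 to 36556273 on GRCm38) encodes the basolateral SLC4 transporter of the same type B cells. Trf1+/+ libraries had normalized counts of 0.891, 245 and 0, and Trf1flox/flox libraries had 0, 286 and 85.4. It was therefore at the floor in 3 of the 6 libraries, of both genotypes, and the groups overlapped. In the library labelled Trf1+/+ replicate 1, *Slc26a4* was represented by 1454 reads while *Slc4a9* was represented by 1. The log2 fold change of *Slc4a9* did not exceed its standard error (1.91, standard error 2.85, adjusted p = 0.981 from limma), and it was 4.35 without Trf1flox/flox replicate 1.

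*Slc4a1* (ENSMUSG00000006574, chromosome 11, 102348824 to 102366203 on GRCm38) encodes anion exchanger 1, found at the basolateral membrane of type A intercalated cells and also in the membrane of red blood cells. Its levels in the Trf1+/+ group were 0.891, 250 and 0.985 normalized counts, and those in the Trf1flox/flox group were 0, 1742 and 365. At least 1 library of each genotype was at the floor, and the 2 highest values were in Trf1flox/flox libraries. The mean was 84.0 ± 144 (SD, n = 3) in the Trf1+/+ libraries and 702 ± 919 (SD, n = 3) in Trf1flox/flox libraries. The log2 fold change was 3.13 (standard error 3.19, adjusted p = 0.970 from limma). With single libraries left out it ranged from 0.96, without Trf1flox/flox replicate 2, to 6.35, without Trf1flox/flox replicate 1. The pooled within-group SD of *Slc4a1* on the log2 scale was 4.93, above that of 99.9% of the genes tested. *Slc4a9* was at 98.1% by the same measure, with an SD of 4.32.

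*Slc4a4* (ENSMUSG00000060961, chromosome 5, 88886818 to 89239653 on GRCm38) encodes the electrogenic sodium-bicarbonate cotransporter through which reclaimed bicarbonate leaves the proximal tubule cell. Its levels were 235, 175 and 2209 normalized counts in the Trf1+/+ group and 1471, 1962 and 3437 in Trf1flox/flox libraries. Only Trf1+/+ replicate 3 of the Trf1+/+ libraries reached the range of the Trf1flox/flox libraries, and it exceeded 2 of them. The mean was 873 ± 1158 (SD, n = 3) in the Trf1+/+ libraries and 2290 ± 1023 (SD, n = 3) in Trf1flox/flox libraries. The log2 fold change of *Slc4a4* was 2.25 (standard error 0.87, adjusted p = 0.970 from limma, exact two-sided permutation test p = 0.3). It was 1.57 without Trf1+/+ replicate 2, 1.79 without the library labelled Trf1+/+ replicate 1 and 3.40 without Trf1+/+ replicate 3. The fits on recovered reads gave a smaller log2 fold change, 1.41 with edgeR and 1.39 with DESeq2.

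The exchangers also differed in which gene supplied most of their reads. *Slc26a4* made up 84.5% and 82.5% of the summed normalized count of the 4 exchangers in Trf1+/+ replicates 1 and 2. In Trf1+/+ replicate 3 it made up 5.12%, and in the Trf1flox/flox libraries 0%, 4.57% and 1.36%. *Slc4a4* was the largest in the other libraries, with 94.8% in Trf1+/+ replicate 3 and 100%, 46.9% and 87.2% in the Trf1flox/flox libraries. Their sum was 1532, 3839 and 2329 normalized counts in the Trf1+/+ group and 1471, 4181 and 3941 in Trf1flox/flox libraries, so that the groups overlapped in total level as well. These shares are of reads and were not divided by transcript length.

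**Figure D1:**
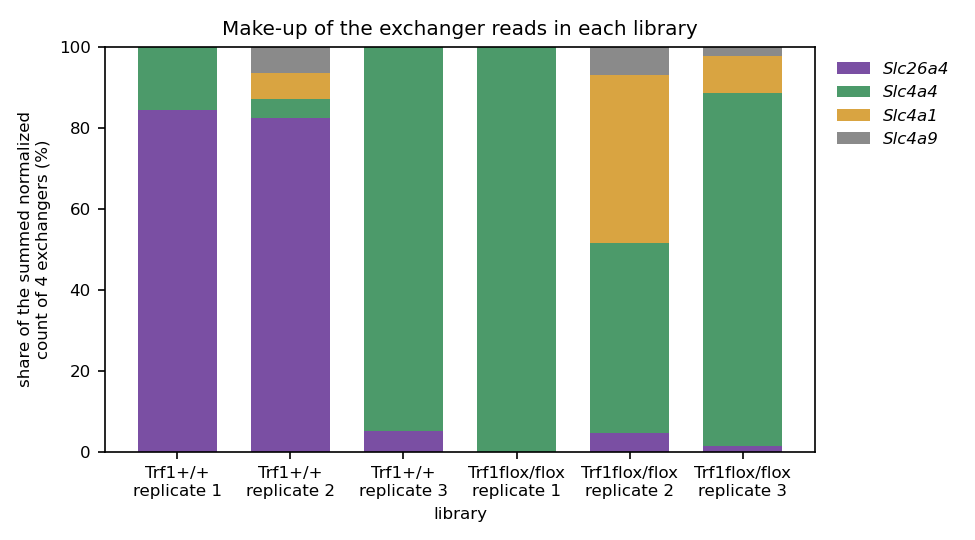
Share of each exchanger gene in the summed normalized count of the 4 exchangers (percent, vertical axis) in each library (horizontal axis). Stacked colours stand for the 4 genes. *Slc26a4* filled 84.5% and 82.5% of the bars of Trf1+/+ replicates 1 and 2 and at most 5.12% of each of the others.

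*Car2* (ENSMUSG00000027562, chromosome 3, 14886273 to 14900770 on GRCm38) encodes carbonic anhydrase II, the abundant cytosolic enzyme of proximal tubule and intercalated cells. Levels of 16046, 12363 and 5103 normalized counts were found in the Trf1+/+ group and of 6671, 9340 and 3672 in Trf1flox/flox libraries. The 2 highest values were in Trf1+/+ libraries, and Trf1+/+ replicate 3 was lower than 2 of the Trf1flox/flox libraries. The mean was 11171 ± 5568 (SD, n = 3) in the Trf1+/+ libraries and 6561 ± 2836 (SD, n = 3) in Trf1flox/flox libraries. The log2 fold change was -0.72 (standard error 0.51, adjusted p = 0.970 from limma). Leaving out each library in turn gave values from -1.20, without Trf1+/+ replicate 3, to -0.35, without Trf1flox/flox replicate 3.

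*Car4* (ENSMUSG00000000805, chromosome 11, 84957786 to 84966044 on GRCm38) encodes carbonic anhydrase IV, which is tethered to the outer face of the membrane by a lipid anchor. Its normalized counts were 1699, 741 and 2488 in Trf1+/+ and 1438, 2318 and 2045 in Trf1flox/flox libraries. All Trf1flox/flox values lay inside the range of the Trf1+/+ values. The log2 fold change of *Car4* was 0.37 (standard error 0.56, adjusted p = 0.981 from limma), and it was -0.12 without Trf1+/+ replicate 2, so its direction rested on that library.

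*Car12* (ENSMUSG00000032373, chromosome 9, 66713686 to 66766845 on GRCm38) encodes a carbonic anhydrase that spans the membrane with its catalytic part outside the cell. The normalized counts of the Trf1+/+ group were 2946, 5051 and 2955, beside 1958, 5809 and 2168 in Trf1flox/flox libraries. Replicate 2 was the highest in each genotype. Group means were 3651 ± 1213 (SD, n = 3) and 3312 ± 2166 (SD, n = 3), and the log2 fold change was -0.28 (standard error 0.51, adjusted p = 0.983 from limma). Its direction turned under upper quartile scaling (0.00058) and without Trf1flox/flox replicate 1 (0.0080), both values next to 0.

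*Car14* (ENSMUSG00000038526, chromosome 3, 95897768 to 95904691 on GRCm38) encodes carbonic anhydrase XIV, a membrane-spanning enzyme of the proximal tubule with its active site outside the cell. The Trf1+/+ group had 31.2, 6.63 and 942 normalized counts, beside 770, 367 and 407 in Trf1flox/flox libraries. Again Trf1+/+ replicates 1 and 2 were lower than all other libraries, and Trf1+/+ replicate 3 was the highest. The mean was 327 ± 533 (SD, n = 3) in the Trf1+/+ libraries and 515 ± 222 (SD, n = 3) in Trf1flox/flox libraries, and the log2 fold change was 2.99 (standard error 1.64, adjusted p = 0.970 from limma). It was 1.48 without Trf1+/+ replicate 2 and 4.96 without Trf1+/+ replicate 3. On the recovered reads it was 0.63 with edgeR (adjusted p = 0.999) and 0.65 with DESeq2, which gave no p for this gene.

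*Car15* (ENSMUSG00000090236, chromosome 16, 17835276 to 17838364 on GRCm38) encodes a lipid-anchored carbonic anhydrase that mice have in the kidney. Its normalized counts were 292, 205 and 220 in Trf1+/+ and 546, 197 and 76.5 in Trf1flox/flox libraries. The Trf1+/+ values lay close together, inside the wider range of the Trf1flox/flox values. Group means were 239 ± 46.5 (SD, n = 3) and 273 ± 244 (SD, n = 3). Its log2 fold change was -0.22 (standard error 1.09, adjusted p = 0.992 from limma) and had no fixed direction, being 0.053 after upper quartile scaling, 0.20 with edgeR and 0.47 without Trf1flox/flox replicate 3.

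**Figure D2:**
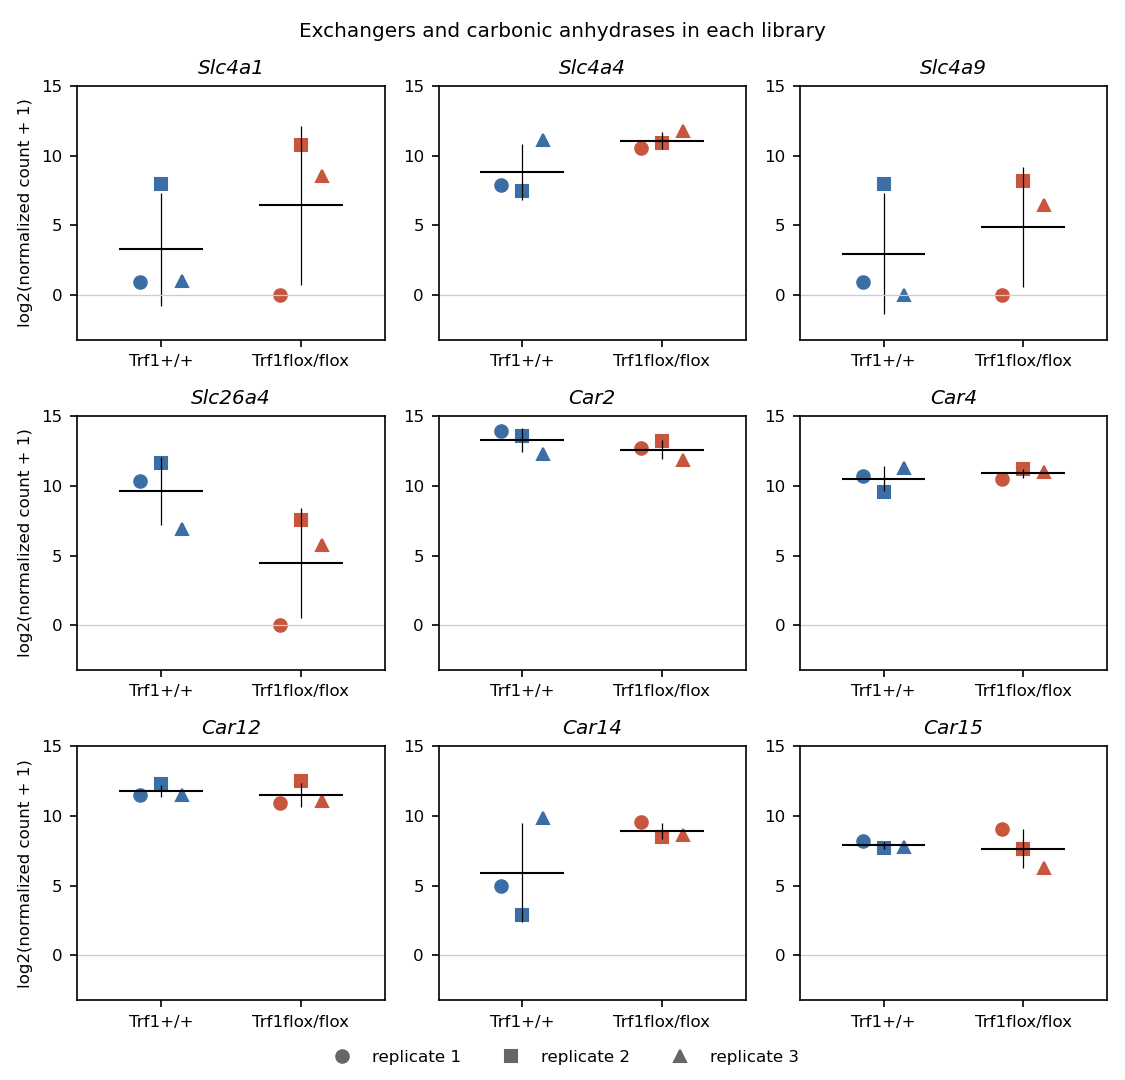
Level of each of the 9 genes on the scale log2(normalized count + 1) (vertical axes) by genotype (horizontal axes). Each symbol is 1 library, with circles, squares and triangles for replicates 1, 2 and 3. Horizontal lines are means and vertical lines are SDs of 3 libraries. *Slc4a1* and *Slc4a9* spread widely within each genotype, while *Car2*, *Car4* and *Car12* were closely grouped.

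Per kilobase of exon, *Car2* had a mean of 3661 normalized counts over the 6 libraries and was above *Car4* in 6 of 6 libraries. *Car4* followed with 909.5 per kilobase and was above *Car12*, with 458, in 5 of 6 libraries. The order further down was not resolved. *Slc26a4* had 259, *Car14* 165, *Slc4a4* 146 and *Car15* 134 normalized counts per kilobase. *Slc26a4* exceeded *Car14* in only 2 of 6 libraries although its mean was higher, *Car14* exceeded *Slc4a4* in 2 of 6, and *Slc4a4* exceeded *Car15* in 3 of 6. *Slc4a1* had 80.4 and *Slc4a9* had 16.1 normalized counts per kilobase, with *Slc4a1* the higher in 5 of 6 libraries. The number of the 9 genes above the floor was 7, 9 and 7 in the Trf1+/+ and 6, 9 and 9 in the Trf1flox/flox libraries. *Car2* alone supplied 71.2%, 55.7% and 36.4% of their summed normalized count in Trf1+/+ and 51.9%, 42.0% and 29.8% in Trf1flox/flox libraries. All lengths are exon bases per gene in GENCODE vM21.

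The spread within groups was uneven over the genes. *Car4*, *Car12* and *Car2* had pooled within-group SDs of 0.68, 0.69 and 0.78 on the log2 scale, beside a median of 2.17 over all genes tested. *Car15* and *Slc4a4* followed, with 1.02 and 1.48. *Car14*, *Slc26a4*, *Slc4a9* and *Slc4a1* were above the median of all genes, with 2.56, 3.29, 4.32 and 4.93. A level of 0 or a few reads in at least 1 library was found for 3 of the 9 genes, and for 50.2% of all genes tested.

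A filter of 10 normalized counts or more in 3 or more libraries was passed by all 9 genes, as by 9966 of the 12125 genes. Of the 9 genes, 5 had a higher and 4 a lower mean log2 level in Trf1flox/flox than in Trf1+/+ libraries. On the higher side were 3 of the 4 exchangers and 2 of the 5 carbonic anhydrases. Over all genes tested, 55.9% were on the higher side. The median log2 fold change of the 9 genes was 0.37, beside 0.20 over all genes tested, and without Trf1+/+ replicate 2 it was -0.019. No gene of the 9 had an adjusted p under 0.05 from limma, edgeR or DESeq2. The share called over all genes was 0.0% with limma and edgeR and 0.604% with DESeq2, which called 58 of 9601 genes. At an unadjusted p under 0.05 from limma there were 2 of the 9 genes, *Slc4a4* (unadjusted p = 0.0246) and *Slc26a4* (unadjusted p = 0.0257), beside 3.13% of all genes tested (2.1% higher and 1.03% lower in Trf1flox/flox libraries). The 9 genes were chosen with earlier results of these data known, so their share cannot be read as an excess. With edgeR and with DESeq2 only *Slc26a4* of the 9 had an unadjusted p under 0.05, beside 1.97% and 4.27% of all genes. In limma, neither passed without the library labelled Trf1+/+ replicate 1 or without Trf1+/+ replicate 2, and neither passed when limma was run without the trend. Without Trf1+/+ replicate 3, 4 of the 9 passed, with *Car2* and *Car14* added. The groups of libraries did not overlap for 0 of the 9 genes, beside 8.68% of all genes tested (5.35% higher and 3.33% lower). Adjusted p values of the 9 genes were between 0.970 and 0.992.

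**Figure D3:**
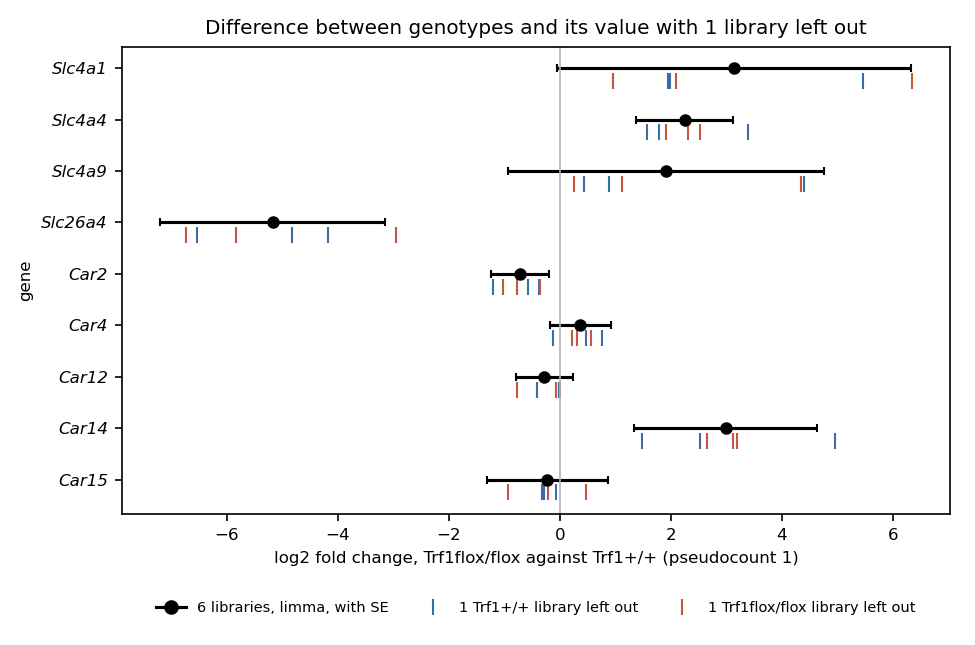
Log2 fold change of each gene, Trf1flox/flox against Trf1+/+, on log2(normalized count + 1) (horizontal axis) with the standard error from limma (black). Ticks below each point are the values with 1 library left out, blue for Trf1+/+ and red for Trf1flox/flox libraries. *Slc26a4* stayed between -6.74 and -2.95 and *Slc4a4* between 1.57 and 3.40, while the ticks of *Car4*, *Car12* and *Car15* fell on both sides of 0.

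In bulk RNA of sorted cells, a lower level of a gene cannot be told apart from fewer cells of the type that expresses it. The markers of the cell types that use these genes were therefore summed in each library, with the 9 genes themselves left out. All 13 intercalated cell markers had a row, led by *Atp6v1g3*, *Atp6v0a4* and *Atp6v1b1*, and they summed to 11032, 13993 and 3549 normalized counts in the Trf1+/+ group and 4326, 16520 and 3737 in Trf1flox/flox libraries. *Slc26a4* was highest in Trf1+/+ replicate 2, where this sum was also high, and it had 191 normalized counts in Trf1flox/flox replicate 2, which had the highest sum. The sum pools the subtypes of intercalated cells and does not measure type B cells alone. *Slc4a1* and *Slc4a9* were highest in Trf1flox/flox replicate 2 and had 1 read each in the library labelled Trf1+/+ replicate 1, with a sum of 11032. *Hepacam2*, *Aqp6* and *Slc26a7*, which belong to that list, were at the floor in the library labelled Trf1+/+ replicate 1 together with *Slc4a1* and *Slc4a9*, and only its proton pump genes and *Foxi1* were well above it. *Foxi1*, the forkhead factor of intercalated cells, had 146, 861 and 47.3 normalized counts in the Trf1+/+ group and 0, 790 and 256 in Trf1flox/flox libraries. It was at 0 in the same library as *Slc26a4*, *Slc4a1* and *Slc4a9*. The part of cell composition in the *Slc26a4* values was not tested.

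*Slc4a4* and *Car14* belong to the proximal tubule, whose 10 markers, led by *Kap*, *Miox* and *Slc27a2*, were all listed. They summed to 92424, 15449 and 69828 normalized counts in the Trf1+/+ group and 23069, 61488 and 116745 in Trf1flox/flox libraries, and 9 of the 10 had a log2 fold change above 0, with a median of 1.00. The library labelled Trf1+/+ replicate 1 had the second highest sum, which was mostly *Kap*, yet it had low *Slc4a4* (235) and low *Car14* (31.2). Trf1+/+ replicate 2 had the lowest sum and the lowest *Slc4a4* and *Car14*. Trf1flox/flox replicate 1 had the next lowest sum but 1471 normalized counts of *Slc4a4* and 770 of *Car14*. Whether tubule content set these levels was not tested. Red blood cell genes, led by *Hbb-bs*, *Hba-a2* and *Hba-a1* and with 6 of 10 listed, summed to 753, 2182 and 10844 normalized counts in the Trf1+/+ group and 405, 566 and 52807 in Trf1flox/flox libraries. *Slc4a1* was highest (1742) where this sum was 566, second highest (365) where it was 52807, in Trf1flox/flox replicate 3, and at the floor in Trf1+/+ replicate 3, where it was 10844. The part of red blood cells in the *Slc4a1* values was not tested. Principal cell markers, 6 of 7 listed and led by *Aqp2*, *Fxyd4* and *Aqp3*, were at 19338 in Trf1flox/flox replicate 1 and at most 2182 in the other libraries, and the exchangers of intercalated cells were all at 0 in that library. Of the endothelial markers only *Pecam1* was listed, at up to 12.0 normalized counts, and of 8 macrophage and leukocyte markers 3 were listed (*Csf1r*, *Lyz2* and *C1qb*), with sums up to 379 and *C1qb* at 0 throughout.

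**Figure D4:**
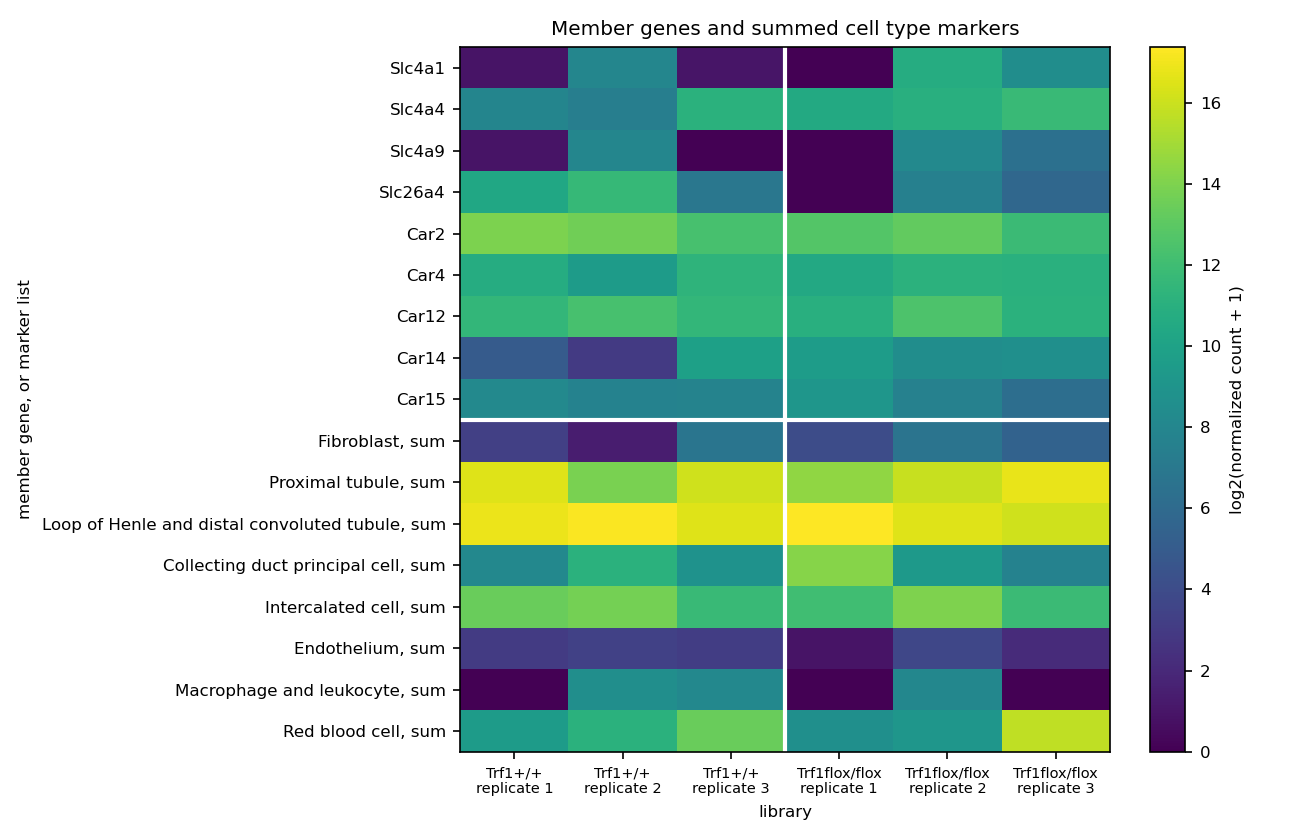
Heat map of log2(normalized count + 1) for the 9 genes (rows above the white line) and for the summed markers of 8 cell types (rows below it) in each library (columns, with a white line between the genotypes). Sums of the 3 listed fibroblast markers stayed at or below 105 normalized counts while the sums of proximal tubule markers were at least 15449.

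Proton pumps secrete the acid that matches the bicarbonate moved by the exchangers. All 22 V-ATPase subunit and accessory genes were listed and tested, of which 7 were higher and 15 lower in Trf1flox/flox libraries, with a median log2 fold change of -0.41 beside 0.20 for all genes. Of the 22 genes, 1 had an unadjusted p under 0.05, beside 3.13% of all genes tested, and none had an adjusted p under 0.05 in limma or DESeq2. The groups of libraries did not overlap for 3 of the 22, all lower, beside 3.33% of all genes that were lower without overlap. *Atp6v1c2*, a C subunit isoform of intercalated cells, had 677, 952 and 220 normalized counts in the Trf1+/+ group and 45.5, 52.5 and 95.8 in Trf1flox/flox libraries. These groups did not overlap, and the log2 fold change was -3.07 (standard error 1.16, adjusted p = 0.970 from limma, adjusted p = 0.0742 from DESeq2). It thus had a profile like that of *Slc26a4*, with both highest values in Trf1+/+ replicates 1 and 2. *Atp6v1a*, *Atp6v1f* and *Atp6v0c*, core subunits and the 3 most abundant of the group, ranged from 2423 to 11613 normalized counts with overlapping groups. The catalytic subunit of the H,K-ATPase *Atp4a*, the only 1 of 3 H,K-ATPase genes listed, had 538, 5.80 and 1226 normalized counts in the Trf1+/+ group and 636, 515 and 376 in Trf1flox/flox libraries. Its log2 fold change of 1.59 rested on Trf1+/+ replicate 2, being -0.71 without that library, and it was -0.19 with edgeR and -0.20 with DESeq2.

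Among 17 other SLC4 and SLC26 genes 10 were listed and 8 tested, with 4 higher and 4 lower and a median log2 fold change of 0.76. The sign of this median was not stable, at -0.39 without Trf1flox/flox replicate 1, -0.037 without the library labelled Trf1+/+ replicate 1, -0.25 with edgeR and -0.26 with DESeq2. *Slc4a2*, a widely expressed anion exchanger, had 293, 267 and 273 normalized counts in the Trf1+/+ group and 67.9, 28.4 and 84.8 in Trf1flox/flox libraries (log2 fold change -2.32, standard error 1.36, adjusted p = 0.970 from limma). Its groups did not overlap. Of the 8 genes tested, 2 were lower and 0 higher without overlap, beside 3.33% and 5.35% of all genes tested. *Slc26a6*, listed but not tested, was higher without overlap. It had 0, 0.829 and 0 normalized counts in the Trf1+/+ group and 146, 432 and 1.38 in Trf1flox/flox libraries. *Slc26a1*, a sulfate transporter of the proximal tubule, had 0.891, 92.0 and 996 in the Trf1+/+ group and 232, 409 and 403 in Trf1flox/flox libraries, with Trf1+/+ replicate 3 the highest as for *Car14*. *Slc26a7*, a chloride-bicarbonate exchanger of type A intercalated cells, reached 1688 normalized counts in Trf1flox/flox replicate 2, the library in which *Slc4a1* was highest, and was at 230 or lower elsewhere. Of 11 other carbonic anhydrases 4 were listed and 2 tested, both on the higher side with a median of 1.08. This median was -1.20 without the library labelled Trf1+/+ replicate 1 and -0.26 without Trf1flox/flox replicate 3. *Car3*, a cytosolic enzyme of low activity, had 2.67, 951 and 300 normalized counts in the Trf1+/+ group and 6.01, 1906 and 2275 in Trf1flox/flox libraries. *Car5b*, the mitochondrial enzyme, reached at most 356 normalized counts and *Car8*, which lacks catalytic activity, at most 96.2.

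Sodium-proton exchangers and their adaptors had 9 of 14 genes listed and 7 tested, 5 higher and 2 lower, with a median log2 fold change of 0.45 that was -0.16 without the library labelled Trf1+/+ replicate 1. The scaffold gene *Slc9a3r1* had 1196, 54.7 and 677 normalized counts in the Trf1+/+ group and 352, 1264 and 761 in Trf1flox/flox libraries, and *Chp1* and *Ahcyl1* overlapped likewise. For ammonia production and transport 9 of 11 genes were listed and 7 tested, 5 higher and 2 lower, with a median of 0.11, or -0.23 without the library labelled Trf1+/+ replicate 1. *Rhcg*, the ammonia channel of the collecting duct, had 2447, 1250 and 851 normalized counts in the Trf1+/+ group and 796, 3423 and 1044 in Trf1flox/flox libraries. *Pck1* and *Glud1*, enzymes that take part in renal glutamine use, also overlapped between genotypes. Regulators and acid-base sensors had 13 of 18 genes listed and 12 tested, 4 higher and 8 lower, with a median of -0.37, which was 0.35 without Trf1flox/flox replicate 1. *Wnk1*, a kinase that controls distal salt transport, was the only 1 at an unadjusted p under 0.05 (log2 fold change -1.32, standard error 0.40, adjusted p = 0.970 from limma), while *Tfcp2l1* and *Wnk4* overlapped. Over all 7 groups, 96 genes were looked for, 68 were listed and 59 tested. Of these 28 were higher and 31 lower, with a median log2 fold change of -0.12. An unadjusted p under 0.05 was found for 2 of the 59, beside 3.13% of all genes tested, and an adjusted p under 0.05 for none in limma or DESeq2. The groups of libraries did not overlap for 7 of the 59, all lower, beside 3.33% lower and 5.35% higher of all genes tested.

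The profiles of *Slc4a4* and *Car2*, the exchanger and the carbonic anhydrase with the highest mean normalized count, were compared with those of all genes tested by Pearson's correlation of log2(normalized count + 1) over the 6 libraries. The correlations describe these libraries only, which share their sorting and scaling. For *Slc4a4* the most similar genes were *Adck5* (0.998), *Slc13a3* (0.994), *Atpsckmt* (0.989), *Ldha* (0.989) and *Tmem14a* (0.983). *Slc13a3*, a dicarboxylate transporter of the proximal tubule, had 115 and 116 normalized counts in Trf1+/+ replicates 1 and 2 and 692 to 1457 in the other libraries, the same split as *Slc4a4*. Of the 9 genes, *Car14* was the most similar to *Slc4a4* (0.93) and *Car2* the least (-0.88). For *Car2* the most similar genes were *Pcolce* (0.995), *Iqgap1* (0.988), *Pgk1* (0.985), *Tom1l1* (0.985) and *Gm44699* (0.979). *Pgk1*, a glycolytic enzyme, had 3834, 3487 and 2382 normalized counts in the Trf1+/+ group and 2707, 3311 and 2280 in Trf1flox/flox libraries, which places the libraries in the same order as *Car2* did.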

How the data were processed

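RNA of 500 sorted kidney cells per mouse was measured by RNA-seq in 6 libraries, 3 per genotype, from cDNA primed with oligo(dT), amplified by PCR and not stranded. The submitters' processing notes name FastQC 0.11.7, TopHat2 2.0.10, Bowtie 1.0.0, SAMtools 0.1.19, HTSeq 0.6.1 and DESeq2. The notes give build GRCm39 and the study's methods give GRCm38, and the table holds gene symbols without coordinates, so that positions and lengths here are those of GENCODE vM21 on GRCm38. The deposited values are a signal per gene, normalized counts, which the authors obtained by dividing the reads by 1 size factor per library. All values (100%) were whole multiples of the value of 1 read within a tolerance of 0.001, so the whole reads were recovered. Reads carry no molecular identifiers, so the floor of 3 reads covers counting error only. Reads shared between overlapping or similar genes cannot be told apart in these values.

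Levels were compared on log2(normalized count + 1) with limma 3.58.1 (R 4.3.3, eBayes with trend) over the 9966 genes that reached 10 normalized counts in 3 or more libraries, with Benjamini-Hochberg adjustment over all of them. Single genes were also tested by exact two-sided permutation of the 6 libraries. The alternatives were edgeR 4.0.16 (quasi-likelihood) and DESeq2 1.42.0 on the recovered reads, pseudocounts of 0.5 and 10, no filter and a filter of 50, upper quartile and TMM scaling, limma without the trend, and each library left out. The scripts were tested on simulated data. The 9 genes and all lists were chosen with earlier results of these data known. Named were the 9 genes, the 3 most abundant genes of each pathway and marker list, those with an unadjusted p under 0.05 in limma or an adjusted p under 0.05 in edgeR or DESeq2, and the 5 genes most correlated with *Slc4a4* and with *Car2*. Others named, such as *Slc4a3*, *Foxi1*, *Hepacam2* and *Aqp6*, were chosen after their values were seen.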

Additional observations from a re-analysis of the deposited data

How the results depend on the processing

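With 3 libraries against 3 no exact p can fall below 0.1, and of the genes tested 50.2% were at the floor in at least 1 library. The log2 fold changes of *Slc4a1*, *Slc4a4*, *Slc4a9*, *Slc26a4*, *Car2* and *Car14* kept their sign under all 15 alternatives, and none of the 9 genes had an adjusted p under 0.05 under any of them. No filter, the filter of 50 and limma without the trend cannot change a log2 fold change, so they do not test its sign. For *Slc26a4* the log2 fold change lay between -6.74 and -2.95 (adjusted p from 0.210 to 1.000 over limma, edgeR and DESeq2) and for *Slc4a4* between 1.39 and 3.40 (adjusted p from 0.687 to 1.000). That of *Car4* lay between -0.12 and 0.76 with a library left out, turning without Trf1+/+ replicate 2. *Car12* turned to 0.00058 under upper quartile scaling and ranged from -0.78 to 0.0080 with a library left out. *Car15* turned to 0.053 under upper quartile scaling and to 0.20 with both edgeR and DESeq2, and ranged from -0.94 to 0.47 with a library left out. The cause of these turns was not tested. The median of all tested genes was 0.20 as deposited, 0.44 after upper quartile scaling and 0.22 after TMM scaling.

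DESeq2 called 58 genes at an adjusted p under 0.05, where limma called 0 (312 at an unadjusted p under 0.05) and edgeR 0 (196 at an unadjusted p under 0.05). With a library left out the unadjusted count of limma was 226 to 650, the highest without Trf1+/+ replicate 3. The number of the 9 genes at an unadjusted p under 0.05 was 2 as fitted, 0 without the limma trend, 1 with edgeR and 1 with DESeq2, and 0 to 4 with a library left out. The count was 0 without Trf1+/+ replicate 1 or replicate 2, 4 without Trf1+/+ replicate 3 and 1 without Trf1flox/flox replicate 3. For the 7 pathway groups together it was 2 as fitted, 4 without the filter, 4 with the filter of 50, 1 under upper quartile scaling and 1 to 5 with a library left out. The median log2 fold change of the sodium-proton exchangers ranged from -0.16 to 1.06 and that of the ammonia genes from -0.23 to 0.67 with a library left out, the lowest without the library labelled Trf1+/+ replicate 1 and the highest without Trf1+/+ replicate 3. With a library left out, the medians of the H,K-ATPase gene (-0.71 to 3.04), the other carbonic anhydrases (-1.20 to 2.49), the other SLC4 and SLC26 genes (-0.39 to 1.10) and the regulators (-1.03 to 0.35, above 0 without Trf1flox/flox replicate 1) also took both signs. That of the proton pump genes stayed below 0, from -0.67 to -0.20. No paired analysis was possible because the labels carry no replicate numbers.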

Other observations

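*Kit*, which encodes the receptor of stem cell factor and was on the list of intercalated cell markers, had 1 read in each Trf1+/+ library (0.891, 0.829 and 0.985 normalized counts) and 34.4, 1965 and 114 normalized counts in the Trf1flox/flox libraries. The groups did not overlap, and the log2 fold change was 6.72 (adjusted p = 0.970 from limma, adjusted p = 4.77e-06 from DESeq2). With 1 read in each Trf1+/+ library, *Kit* could pass the filter on low counts only through the Trf1flox/flox libraries. Passing it therefore already fixed the lack of overlap and the direction. Of all genes tested, 5.35% were higher in Trf1flox/flox libraries without overlap, and DESeq2 called 0.604% of genes with an adjusted p. *Kit* was the only 1 of the 13 intercalated cell markers with an adjusted p under 0.05 in DESeq2. *Slc4a1* was highest in the library in which *Kit* was highest, Trf1flox/flox replicate 2, with 1742 normalized counts.

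*Slc4a3*, an anion exchanger related to *Slc4a2*, had 273, 210 and 231 normalized counts in the Trf1+/+ group and 69.6, 43.7 and 82.0 in Trf1flox/flox libraries. The groups did not overlap, and the log2 fold change was -1.89 (standard error 1.35, adjusted p = 0.970 from limma). Of all genes tested, 3.33% were lower in Trf1flox/flox libraries without overlap, and *Slc4a3* was named after its values were seen.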
